A study of Rattus norvegicus with 28 samples.

Results

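Glucocorticoid signalling was described here by 5 genes, namely both corticosteroid receptors, Nr3c1 and Nr3c2, and the hormone-responsive genes Fkbp5, Sgk1 and Pdk4. They were selected by Ensembl identifier (ENSRNOG00000014096, ENSRNOG00000034007, ENSRNOG00000022523, ENSRNOG00000011815 and ENSRNOG00000009565, in the order above) from 26405 gene rows in each of 16 RNA-seq count files of rat orbitofrontal cortex, and all 5 were found and passed the low-count filter, as did 15413 genes in all. Sprague Dawley rats took the psychostimulant methamphetamine (meth) or saline by intravenous self-administration, and tissue was collected after 2 or 35 days of withdrawal, times between which meth seeking is known to increase. The 4 groups were day 2 saline, day 2 meth, day 35 saline and day 35 meth, with 4 libraries each, and 1 library held punches pooled from 2 rats, so a replicate is a pool of animals and not 1 rat. The orbitofrontal cortex is a frontal region that takes part in valuing rewards and their cues. Rats were decapitated after removal from the home cage. Sex, age and the hour of killing, which matter for stress hormones, are not given in the labels used here.

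Corticosterone, the main glucocorticoid of the rat, enters cells and binds 2 nuclear receptors that act as transcription factors. The mineralocorticoid receptor (Nr3c2) binds it with high affinity and is largely occupied at rest, whereas the glucocorticoid receptor (Nr3c1) binds it with lower affinity and is occupied at the daily peak and under stress. Among the genes that the hormone induces are Fkbp5, Sgk1 and Pdk4, and the FKBP5 protein in turn lowers the hormone affinity of the glucocorticoid receptor.

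Levels are CPM, a gene's counts per M (mega) gene counts of its library, with library sizes scaled by TMM, and carry no correction for gene length, so each gene is compared with itself across groups and not with the others. Gene counts per library were 20.33 to 48.47 M. Differences are log2 fold changes with their standard error (SE) from 1 edgeR quasi-likelihood model over all 16 libraries, and called genes are those whose p, adjusted by Benjamini-Hochberg across the 15413 genes, was under 0.05. In bulk tissue, fewer cells of a type and less RNA per cell cannot be told apart. The orbitofrontal label was not checked against marker genes, since the files carry identifiers only.

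None of the 5 genes was called in any of 7 comparisons by edgeR, and none was called by limma-voom. DESeq2 called none either, but of its 35 values for these genes 4 had no adjusted p, those of Nr3c2 and Pdk4 between meth and saline at day 2 and of Pdk4 for the average meth effect and between days in saline rats. Among all genes, edgeR called 0.110% between meth and saline at day 2, 0% at day 35, 0.136% for the change in the meth effect from day 2 to day 35 and 0.0130% for the meth effect averaged over both days. Between day 35 and day 2 it called 1.83% in meth rats, 0% in saline rats and 1.06% averaged over both drug groups. At an unadjusted p under 0.05, edgeR found 1 of the 5 genes (Fkbp5) between meth and saline at day 2, where 10.5% of all genes were found, and 0 at day 35, where 5.85% were. The same count was 0 for the change in the meth effect (9.62% of all genes) and 1 for its average (Fkbp5; 6.89%). Between the days it was 1 in meth rats (16.0%), in saline rats (8.68%) and in the average of both (15.2%), each time Nr3c2.

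**Figure D1:**
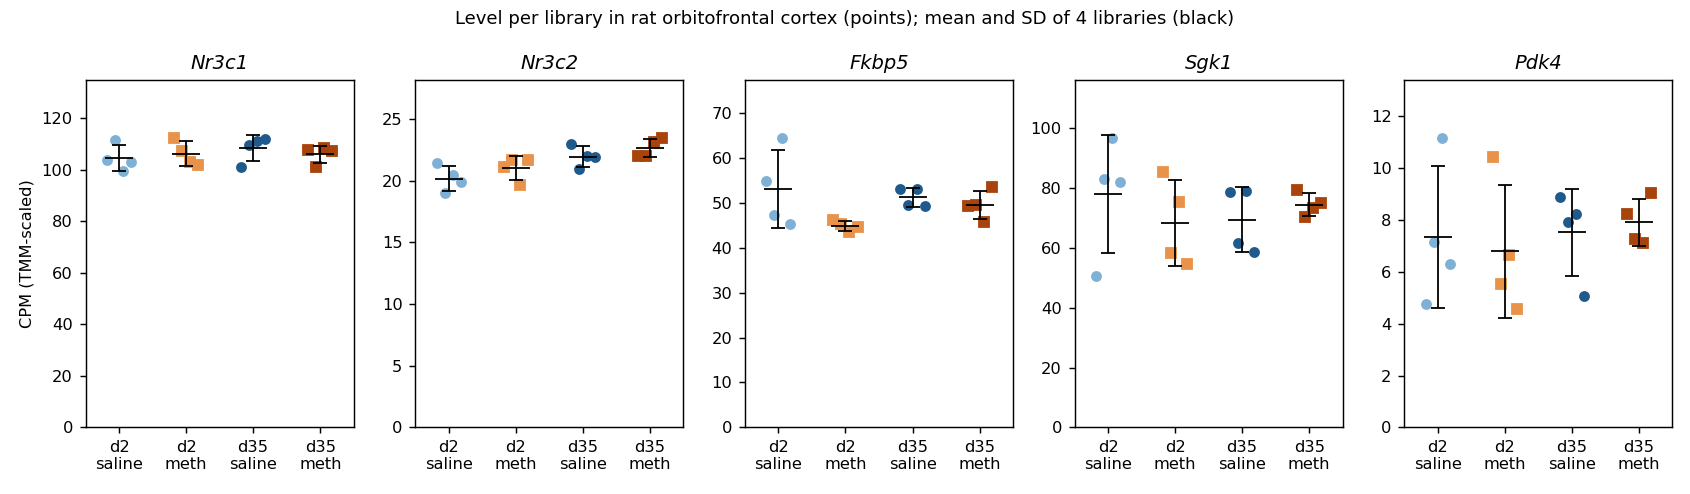
CPM of each gene in each library (points, circles for saline and squares for meth), with the mean and SD of 4 libraries in black; the axes start at 0. Nr3c1 and Nr3c2 sit within narrow bands in all groups, whereas Sgk1 and Pdk4 scatter widely between libraries of 1 group, least in day 35 meth.

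Nr3c1, the glucocorticoid receptor, stood at nearly the same level in all 4 groups. Its CPM was 104, 111.5, 99.5 and 103 in the day 2 saline libraries (mean 105 ± 5.05, SD, n = 4) and 113, 107.5, 103 and 102 in the day 2 meth libraries (106 ± 4.85). At day 35 it was 101, 109.6, 111 and 112 in saline libraries (109 ± 5.13) and 107.6, 101, 108 and 107 in meth libraries (106 ± 3.34). All 4 groups overlapped, and the highest library was only 1.13-fold above the lowest. The order of the means, from day 35 saline through day 2 meth and day 35 meth to day 2 saline, therefore ran over neighbours that did not differ beyond their spread. At day 2 the meth to saline fold was 1.02 (95% confidence interval 0.955 to 1.08; log2 fold change 0.022, SE 0.043, edgeR adjusted p = 0.90), and at day 35 it was 0.978 (0.920 to 1.04; log2 fold change -0.032, SE 0.042, edgeR adjusted p = 0.97). Between the days the fold was 0.999 in meth rats (0.940 to 1.06) and 1.04 in saline rats (0.975 to 1.10).

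Nr3c2, the mineralocorticoid receptor, was somewhat higher at day 35 than at day 2 in both drug groups, without passing the test. Its CPM was 21.4, 18.9, 20.4 and 19.8 in day 2 saline libraries (20.2 ± 1.04, SD, n = 4) and 21.1, 21.7, 19.7 and 21.7 in day 2 meth libraries (21.0 ± 0.954). At day 35 it was 22.9, 20.9, 22.0 and 21.9 in saline libraries (21.9 ± 0.833) and 22.0, 22.0, 23.1 and 23.5 in meth libraries (22.6 ± 0.752). The group means thus ran in the order day 2 saline, day 2 meth, day 35 saline, day 35 meth, and each neighbouring pair in that order overlapped. In meth rats all 4 day 35 libraries lay above all 4 day 2 libraries, which was true, in 1 direction or the other, of 11.4% of all genes, while in saline rats the days overlapped, as they did for the other 4 genes in both drug groups. Ranges did not overlap for 3.86% of all genes between days in saline rats, for 5.45% between meth and saline at day 2 and for 3.46% at day 35, and for 0 of the 5 genes in each of these 3 comparisons.

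The fold from day 2 to day 35 for Nr3c2 was 1.08 in meth rats (95% confidence interval 1.00 to 1.15; log2 fold change 0.11, SE 0.048, edgeR unadjusted p = 0.039, adjusted p = 0.28). In saline rats it was 1.09 (1.01 to 1.17; log2 fold change 0.12, SE 0.050, edgeR unadjusted p = 0.022, adjusted p = 0.51). Averaged over both drug groups it was 1.08 (1.03 to 1.14; log2 fold change 0.12, SE 0.034, edgeR unadjusted p = 0.0036, adjusted p = 0.10), the 533rd smallest p of 15413, and over 23 alternatives the adjusted p ranged from 0.068 to 0.19. Meth and saline differed by a fold of 1.04 at day 2 (0.971 to 1.12) and 1.03 at day 35 (0.962 to 1.10), and the log2 meth effect at day 35 less that at day 2 was -0.018 (SE 0.069; adjusted p = 0.97, edgeR). Counting error was a large part of the spread of Nr3c2, which had 437 to 1105 reads per library. At the mean count of each group the counting SD was 3.28 to 4.67%. The coefficient of variation between libraries was 3.32 to 5.17% within groups.

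Library depth moved with the level of Nr3c2. Over the 16 libraries its log2 CPM correlated with the log2 of gene counts by Pearson's r = 0.66 (two-sided permutation p = 0.0061, adjusted over 5 genes 0.030) and Spearman's rho = 0.72 (permutation p = 0.0026, adjusted 0.013), and by r = 0.68 without the 2 libraries farthest from the median depth. The day 2 saline libraries, lowest in Nr3c2 on average, were the shallowest (20.33 to 23.54 M) and the day 35 meth libraries, highest in Nr3c2, had 36.72 to 43.98 M. Day 2 meth had 24.97 M in replicate 1 and 35.41 to 37.48 M in replicates 2 to 4. Day 35 saline had 48.47 M in replicate 9 and 31.85 to 36.16 M in replicates 10 to 12. All day 2 saline libraries were thus shallower than every other library, and in saline rats depth separated the days completely. The depths of the remaining groups overlapped. Mean depth ran in the same order of groups as mean Nr3c2. For deviations from the group means the relation was r = 0.061 (permutation p within groups 0.83, adjusted 1). The part of depth in the difference between days was not tested. For the other 4 genes the relation with depth had r between -0.25 and 0.006 (smallest permutation p 0.36, adjusted 0.89), but within groups Nr3c1 gave r = -0.65 (permutation p 0.025, adjusted 0.13). Without the 2 libraries farthest from the median depth, r was -0.073 for Nr3c1, -0.19 for Fkbp5, -0.41 for Sgk1 and -0.27 for Pdk4.

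The balance of both receptors can be read within a library, free of scaling, as Nr3c1 counts per Nr3c2 count, a quantity chosen after the values had been seen. It averaged 5.20 ± 0.48 in day 2 saline (SD, n = 4; range 4.85 to 5.88), 5.06 ± 0.29 in day 2 meth (4.69 to 5.34), 4.96 ± 0.38 in day 35 saline (4.40 to 5.24) and 4.69 ± 0.15 in day 35 meth (4.57 to 4.89). The means ran in the reverse order of those of Nr3c2, and all groups overlapped. Since Nr3c2 is the divisor and Nr3c1 stood at nearly the same level in all groups, that order largely repeats the one of Nr3c2. No test was made of this ratio, and its absolute size depends on the lengths of both transcripts.

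**Figure D2:**
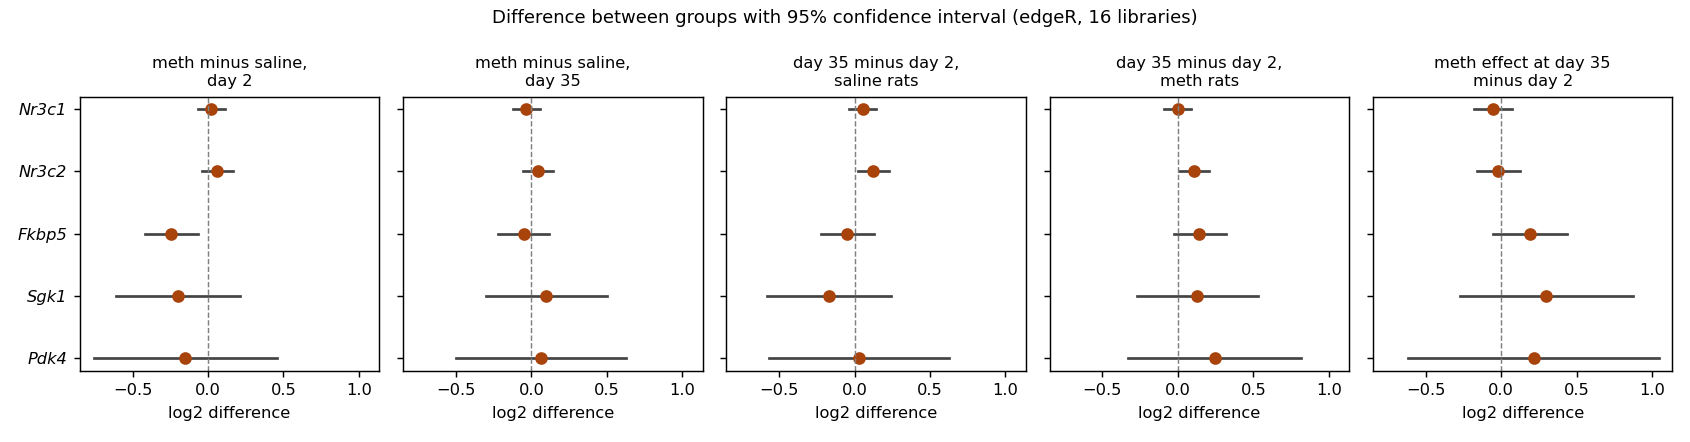
Log2 differences of the 5 genes (points) with 95% confidence intervals (lines) from the edgeR model over 16 libraries, for meth against saline at each day, day 35 against day 2 in each drug group, and the change of the meth effect. The intervals are narrow for Nr3c1 and Nr3c2 and wide for Sgk1 and Pdk4, and those that leave out 0 are Fkbp5 at day 2 and Nr3c2 between the days.

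Fkbp5, a cochaperone of the receptor complex with HSP90 that is commonly used as a readout of glucocorticoid action, had its lowest level in day 2 meth rats. Its CPM was 46.1, 45.2, 43.4 and 44.5 in the day 2 meth libraries (44.8 ± 1.14, SD, n = 4) and 54.9, 47.4, 64.5 and 45.4 in the day 2 saline libraries (53.0 ± 8.67). The meth libraries lay close together, while the saline libraries were spread from just inside the meth range (replicate 16) to the highest value of all 16 libraries (replicate 15). At day 35 the level was 53.1, 49.6, 53.0 and 49.2 in saline libraries (51.2 ± 2.12) and 49.3, 49.5, 45.8 and 53.4 in meth libraries (49.5 ± 3.12), and the groups overlapped.

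The meth to saline fold of Fkbp5 at day 2 was 0.845 (95% confidence interval 0.748 to 0.955; log2 fold change -0.24, SE 0.083, edgeR unadjusted p = 0.010, adjusted p = 0.28), the 552nd smallest p of 15413. Of the 4 meth libraries, 3 lay below every saline library. Without saline replicate 15 the log2 fold change was -0.14 (SE 0.060, edgeR adjusted p = 0.42), and over 24 alternatives the adjusted p ranged from 0.089 with DESeq2 to 0.51. For this comparison DESeq2 adjusted over 5552 genes and not over 15413. At day 35 the fold was 0.965 (0.858 to 1.09; log2 fold change -0.051, SE 0.080, edgeR adjusted p = 0.97). The change of the meth effect from day 2 to day 35 was 0.19 in log2 units (SE 0.12; adjusted p = 0.63, edgeR), so a difference between the days was not shown. Averaged over both days the fold was 0.903 (0.83 to 0.98; edgeR unadjusted p = 0.022, adjusted p = 0.66). Between day 2 and day 35 it was 1.10 in meth rats (0.980 to 1.24) and 0.967 in saline rats (0.857 to 1.09).

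Sgk1, a kinase that acts on ion channels and transporters and is induced through both receptors, varied far more between pools than between groups. Its CPM was 50.4, 82.8, 96.7 and 81.9 in day 2 saline libraries (78.0 ± 19.6, SD, n = 4) and 85.2, 58.2, 75.3 and 54.4 in day 2 meth libraries (68.3 ± 14.5). At day 35 it was 78.6, 61.5, 78.9 and 58.6 in saline libraries (69.4 ± 10.9) and 79.3, 70.1, 73.4 and 74.9 in meth libraries (74.4 ± 3.79). Every pair of groups overlapped, and both the lowest and the highest of the 16 libraries were day 2 saline, 1.92-fold apart. The meth to saline fold was 0.871 at day 2 (95% confidence interval 0.654 to 1.16; log2 fold change -0.20, SE 0.19, edgeR adjusted p = 0.77) and 1.07 at day 35 (0.811 to 1.42; log2 fold change 0.099, SE 0.19, edgeR adjusted p = 0.98). From day 2 to day 35 it was 1.09 in meth rats (0.827 to 1.45) and 0.889 in saline rats (0.669 to 1.18). With intervals this wide, the libraries show neither a change of Sgk1 nor its absence. The day 2 log2 difference also moved with single libraries, from -0.36 without saline replicate 13 (edgeR unadjusted p = 0.041, adjusted p = 0.47) to -0.085 without saline replicate 15 (edgeR unadjusted p = 0.68, adjusted p = 0.93). Without the shallowest library of each day 2 group, saline replicate 13 and meth replicate 1, which held the lowest saline and the highest meth level of Sgk1, it was -0.48 (SE 0.14, edgeR unadjusted p = 0.0065, adjusted p = 0.23), a choice made after seeing the data. The adjusted p over all 24 alternatives ranged from 0.23 to 0.94.

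Pdk4, a mitochondrial kinase that inhibits pyruvate dehydrogenase and so turns cells from glucose towards fatty acid oxidation, behaved alike at a lower count. Its CPM was 4.76, 7.17, 11.2 and 6.32 in day 2 saline libraries (7.35 ± 2.73, SD, n = 4) and 10.4, 5.53, 6.64 and 4.57 in day 2 meth libraries (6.79 ± 2.56). At day 35 it was 8.87, 7.92, 8.24 and 5.05 in saline libraries (7.52 ± 1.69) and 8.22, 7.27, 7.10 and 9.02 in meth libraries (7.90 ± 0.896). Every pair of groups overlapped, and the highest library was 2.44-fold above the lowest. The meth to saline fold was 0.901 at day 2 (95% confidence interval 0.591 to 1.38; edgeR adjusted p = 0.90) and 1.05 at day 35 (0.708 to 1.55; edgeR adjusted p = 0.99), and from day 2 to day 35 it was 1.18 in meth rats (0.794 to 1.76) and 1.02 in saline rats (0.674 to 1.54). Libraries held 97 to 427 reads of Pdk4. At the mean count of each group, counting error alone gives an SD of 5.56 to 7.68%. That is below the coefficient of variation of 11.3 to 37.7% seen within groups. The sign of the day 2 difference rested on single libraries, with a log2 fold change of -0.15 over all libraries, 0.12 without saline replicate 15 and -0.41 without meth replicate 1. Without meth replicate 1 and saline replicate 13, again the highest and the lowest of their groups, it was -0.56 (SE 0.24, edgeR unadjusted p = 0.036, adjusted p = 0.38).

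**Figure D3:**
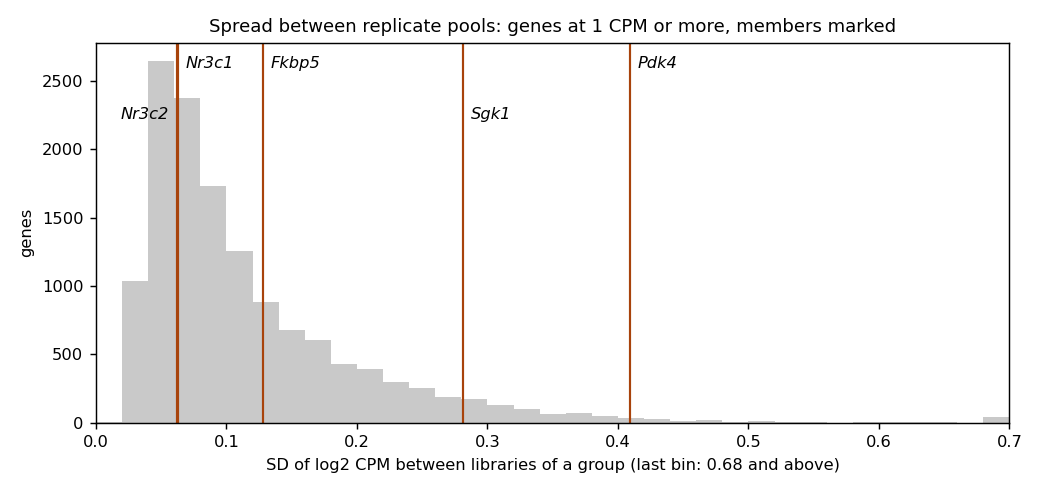
Histogram of the SD of log2 CPM between libraries of the same group for 13561 genes at a mean of 1 CPM or more (grey bars), with the 5 genes marked by vertical lines. Nr3c1 and Nr3c2 lie near the peak at 0.063 and 0.062, Fkbp5 at 0.13, and Sgk1 (0.28) and Pdk4 (0.41) in the right tail.

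The 5 genes thus divided by how much they varied between pools of the same group. The pooled SD of log2 CPM within groups was 0.063 for Nr3c1 and 0.062 for Nr3c2, below the median of 0.088 over 13561 genes with a mean of at least 1 CPM. It was 0.13 for Fkbp5, above that of 69.9% of these genes. For Sgk1 it was 0.28, above 94.3% of genes, and for Pdk4 0.41, above 98.7%. Percentiles of spread are a description and carry no test.

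Sgk1 and Pdk4 varied together from pool to pool. Among the 10 pairs of the 5 genes, theirs was the 1 pair correlated after adjustment over the 10 pairs, with Pearson's r = 0.84 (n = 16 libraries, two-sided permutation p = 6e-05, adjusted 0.00060) and Spearman's rho = 0.71 (permutation p = 0.0025, adjusted 0.025). The relation held for deviations from the group means (r = 0.86, permutation p within groups 0.00035, adjusted 0.0035; rho = 0.83). Without the 2 libraries farthest from the median of Sgk1 it was r = 0.73 (permutation p = 0.0030, adjusted 0.030) and rho = 0.58 (permutation p = 0.033, adjusted 0.33). With any 1 library left out r was 0.80 to 0.89, and after centring each lane on its mean it was 0.83, as a lane held only 4 libraries and gave no value of its own. In both day 2 groups the 4 libraries stood in the same order for both genes, from saline replicate 15 down to saline replicate 13 and from meth replicate 1 down to meth replicate 4. In the day 35 groups the orders differed.

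**Figure D4:**
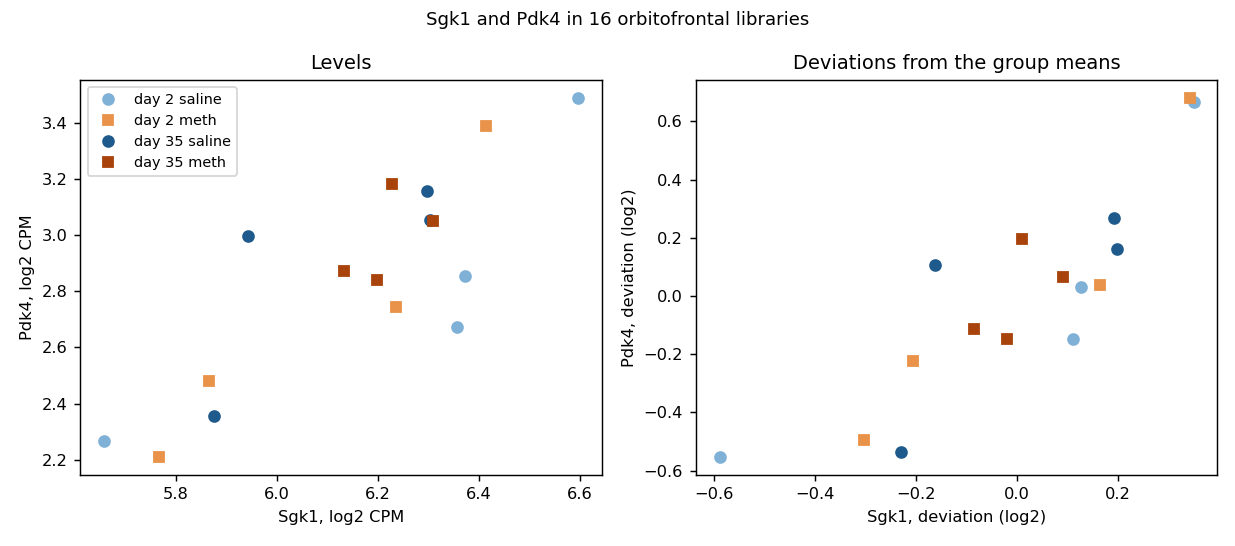
Sgk1 against Pdk4 in 16 libraries, as log2 CPM (left) and as deviations from the group means (right); circles are saline and squares meth, light for day 2 and dark for day 35. The points rise together (r = 0.84 and 0.86), and the day 2 libraries reach both ends.

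The remaining 9 pairs did not pass. Fkbp5 and Pdk4 had r = 0.46 (permutation p = 0.075, adjusted 0.37) and rho = 0.54 (permutation p = 0.035, adjusted 0.17), and Fkbp5 and Sgk1 r = 0.25 (permutation p = 0.36, adjusted 0.73). Both receptors were unrelated to each other at this sample size (r = 0.002, permutation p = 0.99, adjusted 0.99). The 6 pairs of a receptor with Fkbp5, Sgk1 or Pdk4 had r from -0.27 to 0.19. Leaving out day 2 saline replicate 13, the shallowest library, which was low in Sgk1 and Pdk4 but not in Fkbp5, brought Fkbp5 and Pdk4 to r = 0.65 (permutation p = 0.0073, adjusted 0.036), so that pair's call rests on 1 library.

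Among 13560 other genes, Sgk1 was the one with the 3rd highest correlation to Pdk4 and Pdk4 the one with the 8th highest to Sgk1. The gene most like Pdk4 was ENSRNOG00000019009 (Pearson's r = 0.86 over 16 libraries), which was also the 3rd most like Sgk1 (r = 0.85). The highest correlation of any gene with a member was that of ENSRNOG00000001184 with Fkbp5 (r = 0.89). For Nr3c1 and Nr3c2 the highest r was 0.81 and 0.82. These genes were taken as the best of 13560, so no p is attached, and the files do not pair these identifiers with names.

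Promoter sequence was read from RefSeq (build GRCr8, which is not the rn4 build of the counts), which gave 7 windows of 250 bases before to 50 bases after a transcript start for 4 of the genes, 3 of them for Sgk1, 2 for Nr3c1 and 1 each for Fkbp5 and Pdk4. The left and right arms of the glucocorticoid response element, AGAACA and TGTTCT, were searched on both strands. None of the 7 windows held either arm, against 20.7% of all 33469 windows, and the palindrome of both arms with 3 bases between them was in 0.0149% of all windows. Known response elements of such genes can lie far from the start, so this says only that these letters are not in these windows. The GC box (GGGCGG or CCGCCC), searched afterwards, was in 6 of the 7 windows and in 33.1% of all windows. These 6 windows were 51.7 to 79% G and C, against a median of 51.7% over all windows. The part of base composition in the GC box count was not tested. The TATA motif (TATAAA or TTTATA) was in 2 of the 3 Sgk1 windows, in none of the other 4 and in 14.2% of all. The 250 bases before the start are printed for the pair that varied together, for Sgk1 from the window with both motifs (chr1:24804832-24805081, minus strand) and for Pdk4 (chr4:34568330-34568579, minus strand), with GC boxes and the TATA motif in capitals.
Sgk1: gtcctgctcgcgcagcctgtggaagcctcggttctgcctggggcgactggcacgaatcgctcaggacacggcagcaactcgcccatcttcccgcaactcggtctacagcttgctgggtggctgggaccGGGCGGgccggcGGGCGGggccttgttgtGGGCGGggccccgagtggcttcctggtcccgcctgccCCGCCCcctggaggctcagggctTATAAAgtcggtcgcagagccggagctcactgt
Pdk4: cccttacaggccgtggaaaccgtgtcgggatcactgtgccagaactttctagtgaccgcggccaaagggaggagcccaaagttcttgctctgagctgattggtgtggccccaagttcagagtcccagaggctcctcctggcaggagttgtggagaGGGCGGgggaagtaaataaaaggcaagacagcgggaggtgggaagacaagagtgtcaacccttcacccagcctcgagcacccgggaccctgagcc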

How the data were processed

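Poly(A) RNA of orbitofrontal punches, 2 rats pooled per library, was sequenced on an Illumina HiSeq after TruSeq RNA v2 preparation, per the labels' protocols. TopHat, HTSeq and limma and the build rn4 are named in the submitters' processing notes; versions, annotation release and strand setting are not stated by any source at hand. Each deposited file lists raw counts by Ensembl gene identifier. Their 5 summary rows, 31.13 to 32.61% of all rows' reads, were left out. Withdrawal days come from the series' design text, which gives 2 independent runs of rats; no label ties a library to a run. The 12 central amygdala samples were not analysed here.

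Genes were filtered with filterByExpr and scaled with TMM, and group means were modelled by edgeR's quasi-likelihood test (version 4.0.16 in R 4.3.3, robust glmQLFit and then glmQLFTest). Dividing a log2 fold change by its root F gave the standard error. DESeq2 1.42.0 and limma-voom 3.58.1 were alternatives. Log2 CPM used a prior count of 2, and correlations used 100000 permutations. The pipeline was tested on simulated data. Library pairs within groups differed by 5.19 to 17.01 times the sampling noise (chi-square per degree of freedom), and no library was merged. Each lane held 1 library of every group; deviations correlated by 0.012 on average over 24 same-lane pairs (range -0.174 to 0.158), and lane was an alternative block. Each group carries 1 index, so index and group cannot be told apart.

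Gene symbols of the 5 identifiers were given with their selection; 0 of 26405 identifiers matched the gene table used here, so the pairing was not checked and the further gene lists and cell type markers, set by symbol, could not be run. The rule named the 5 members and the 3 genes most correlated with each; of the latter, 2 in all are given by identifier, picked after their values were seen. Members and lists were chosen with earlier results of these data known.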

Additional observations from a re-analysis of the deposited data

Results flagged for a closer look

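Of 28 sets of 4 libraries (levels of the 5 genes, the receptor ratio and gene counts in each group), 3 held a library that stood apart from the other 3 of its group by more than 0.83 of the group's range; chance gives about 1 in 20. In day 35 meth, replicate 6 had the lowest Nr3c1 level, 101 CPM, below 3 libraries at 107 to 108 CPM. Gene counts were lowest in day 2 meth replicate 1 (24.97 M) and in day 2 saline replicate 13 (20.33 M). In Sgk1 and Pdk4 the first of these was the highest and the second the lowest library of its group. Without both, Sgk1 and Pdk4 still correlated (r = 0.79, n = 14, permutation p = 0.00080, adjusted 0.0040; rho = 0.58, permutation p = 0.033, adjusted 0.17). Over all 16 libraries the r of log2 CPM with log2 gene counts was -0.10 for Sgk1 (permutation p = 0.71, adjusted 0.89) and 0.006 for Pdk4 (permutation p = 0.98, adjusted 0.98). For deviations from the group means it was -0.001 and -0.24. Without the 2 libraries farthest from the median depth it was -0.41 and -0.27. The part of depth in these levels was not tested otherwise.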

How the results depend on the processing

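The count of 0 called genes among the 5 was the same in each of the 7 comparisons under every alternative run: median-ratio size factors, no filter, a filter at 1 CPM in 4 libraries, DESeq2, limma-voom, lane as a replicate block, each library left out, and, chosen after seeing the data, leaving out the shallowest library of each day 2 group (meth replicate 1 and saline replicate 13). Fits of only the groups compared, run for the 4 comparisons of a pair of groups, also called 0. Lane as a replicate block changed no call. Counts over all genes moved more. With DESeq2 they were 115, 5, 83, 29, 554, 37 and 482, against 17, 0, 21, 2, 282, 0 and 163 with edgeR, in the order day 2, day 35, difference, average meth effect, meth rats, saline rats and average over drug groups. DESeq2 gave an adjusted p for 5552 genes at day 2 and 15413 at day 35, with the other comparisons between, against 15413 in each with edgeR. The difference of the meth effect gave 4 with lane as a replicate block, 8 with median-ratio factors, 9 with limma-voom and 9 with the 1 CPM filter.

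Signs of uncalled differences near 0 turned. Nr3c1 between days in meth rats (-0.001) was 0.002 with median-ratio factors, with DESeq2 and in the fit of the groups compared, 0.003 with no filter, 0.000 with limma-voom and 0.031 without meth replicate 1 and saline replicate 13. Without these 2 libraries, 3 of the 5 genes were at an edgeR unadjusted p under 0.05 between meth and saline at day 2 in place of 1, namely Fkbp5, Sgk1 and Pdk4 (adjusted p 0.37, 0.23 and 0.38). Among all genes the same count was 1840 of 15484, against 1612 of 15413 with all libraries. For Sgk1 and Pdk4 the libraries left out were the highest meth and the lowest saline library of day 2. Leaving them out therefore had to lower both differences. The change in the meth effect of Sgk1 went from 0.30 to 0.58 (unadjusted p 0.010, adjusted 0.28) and that of Pdk4 from 0.21 to 0.63 (unadjusted p 0.062, adjusted 0.46). Pdk4 between days in meth rats went from 0.24 to 0.50 (unadjusted p 0.037, adjusted 0.26) and Sgk1 in saline rats from -0.17 to -0.33 (unadjusted p 0.032, adjusted 0.49). Also without them, Nr3c1 between meth and saline at day 2 was -0.011 and Pdk4 between days in saline rats -0.12. Sgk1 between days, averaged over drug groups, was 0.006 with limma-voom. The cause was not tested. Among correlations, deviations from the group means turned Nr3c1 with Nr3c2 (-0.25), Nr3c1 with Sgk1 (0.031) and Nr3c2 with Pdk4 (-0.16). Leaving out the 2 libraries farthest from the median turned Nr3c1 with Fkbp5 (0.19), Nr3c1 with Sgk1 (0.29), Nr3c2 with Fkbp5 (-0.025) and Fkbp5 with Sgk1 (-0.054). Leaving out meth replicate 1 and saline replicate 13 turned Nr3c1 with Pdk4 (-0.19) and brought Fkbp5 with Pdk4 to 0.79 (permutation p = 0.00059, adjusted 0.0040), making 2 called pairs. With 1 library left out, 1 to 2 pairs were called, 2 only without day 2 saline replicate 13.

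With 1 library left out, the following log2 differences changed sign. Between meth and saline at day 2, Nr3c1 ranged from -0.012 to 0.052 and Pdk4 from -0.413 to 0.121, and at day 35 Pdk4 from -0.083 to 0.163. For the change in the meth effect, Nr3c2 ranged from -0.049 to 0.014 and Pdk4 from -0.056 to 0.478. For the average meth effect, Nr3c1 ranged from -0.023 to 0.010, Sgk1 from -0.132 to 0.007 and Pdk4 from -0.174 to 0.093. Between days, Nr3c1 in meth rats ranged from -0.018 to 0.032, Fkbp5 in saline rats from -0.120 to 0.058, Pdk4 in saline rats from -0.126 to 0.301 and Sgk1 over both drug groups from -0.098 to 0.041. The r of Nr3c1 ranged from -0.097 to 0.217 with Nr3c2, -0.376 to 0.035 with Fkbp5, -0.165 to 0.185 with Sgk1 and -0.118 to 0.278 with Pdk4. That of Nr3c2 with Pdk4 ranged from -0.050 to 0.167, and that of Fkbp5 with Sgk1 from -0.098 to 0.474.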

Other observations

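The spread of the 3 hormone-responsive genes differed between groups in a way no test was made of. The coefficient of variation of Sgk1 was 25.1% in day 2 saline, 21.2% in day 2 meth, 15.6% in day 35 saline and 5.09% in day 35 meth libraries (n = 4 each), and that of Pdk4 was 37.2, 37.7, 22.5 and 11.3% in the same order. For Fkbp5 it was 16.3% in day 2 saline but 2.55% in day 2 meth, about the counting SD of 2.58%, and 4.14 and 6.30% at day 35. Nr3c1 stayed between 3.15 and 4.83% in all groups. A coefficient of variation from 4 pools is itself imprecise.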
